A study of Mus musculus with 3 samples.

Results

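Passenger-strand miRNAs are the starred names of the older nomenclature, such as miR-30c-2*, given to the less abundant arm of a hairpin. The probes described here are those whose mouse name ends in a star, after names numbered as members of the imprinted Dlk1-Dio3 cluster and names of several other numbered families and clusters, such as miR-21*, miR-24-2*, miR-28* and miR-200c*, were left out. They numbered 81 of 115 starred mouse probes, 579 mouse miRNA probes and 1408 probes in all. Each had 1 probe, and its guide arm, the unstarred name of the same precursor, was also on the array, as 78 names with 83 probes.

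The cells were mouse dendritic cells raised from bone marrow (BMDCs), which present antigen to T cells. In the ID8 and CT-26 co-cultures, BMDCs shared transwell plates with an ovarian (ID8) or a colon (CT-26) mouse tumour line for 24 h, at 3% serum. The control was BMDCs for which no tumour cells and no culture details are given. Each group had 1 single-colour array of Hy3-labelled total RNA, which leaves the groups without replicates or tests, and each ratio is that of 1 array to another. Probe signal is an intensity after local background subtraction (corrected intensity), and 50 units served as the floor for a measured value. The authors' normalized intensity divides it by a constant of each array.

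A miRNA hairpin is cut by Drosha and Dicer into a duplex of which an Argonaute protein usually keeps the guide strand and discards the passenger strand. Both strands come from 1 transcript, so the retained amounts of guide and passenger depend on strand choice and stability as well as on transcription. Some passenger strands, miR-140* among them, are kept in amounts that exceed the other arm in several tissues.

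The 7 blood cell miRNAs checked were miR-142-3p, miR-142-5p, miR-223, miR-150, miR-155, miR-146a and miR-21. Above the floor were 7 in the ID8 co-culture, 6 in the CT-26 co-culture and 4 in the control. Their summed normalized intensities were 5.06, 5.49 and 2.31 on those arrays. In the control miR-155, miR-223 and miR-150 read 49.5, 49 and 47.5 units, and in the CT-26 co-culture miR-150 read 45.5. These lay just under the floor of 50, so the counts rest on where it was set. Of the 8 epithelial miRNAs, 2 were above it on each array, namely miR-200b and miR-194, while the others, miR-200a and miR-205 at or near 0 among them, were below; the summed intensities were 0.593, 0.950 and 0.714. Muscle or neural miRNAs summed to 3.17, 6.05 and 2.12, mostly from the miR-1 probe. The part of these differences in the results was not tested. The median local background was 49.5 units on the ID8 array, 48.25 on the CT-26 array and 57.75 on the control array, and the brightest of 21 empty spots read 1.75, 2.25 and 6 units above it.

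Mature sequences of names that reached the floor are shown because a probe is known by its target alone. RefSeq (GRCm38.p6) held a mature sequence for 67 of the 81 names, and for 16 of the 19 that reached the floor on any array; the arm was assigned from the older star naming. Capitals mark the seed, bases 2 to 8, which pairs with target mRNAs. The 10 shown are those on which the comparisons between arrays, and between the arms of a precursor, mainly turn.
miR-30c-2*: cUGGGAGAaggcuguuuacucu
miR-872*: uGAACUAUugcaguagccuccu
miR-34c*: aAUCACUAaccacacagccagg
miR-881*: cAGAGAGAuaacagucacaucu
miR-183*: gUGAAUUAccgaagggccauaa
miR-196a*: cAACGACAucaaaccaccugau
miR-140*: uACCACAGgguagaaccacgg
let-7d*: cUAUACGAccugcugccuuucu
miR-106b*: cCGCACUGuggguacuugcugc
miR-20b*: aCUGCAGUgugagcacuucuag
miR-30c-2* lies at chr1:23291754-23291775 (plus strand), miR-872* at chr4:94665206-94665227 (plus strand, within the span of the ciliary gene Ift74) and miR-106b* at chr5:138165746-138165767 (minus strand, within the span of Mcm7, a replication helicase subunit). let-7d* is at chr13:48536024-48536045 (minus strand). The name miR-196a* gives no copy number, while its guide has 2 loci, and the miR-196a-1 arm was taken. That arm, at chr11:96265225-96265246 (plus strand), lies within the span of the noncoding gene Gm51876. The sequence, seed and position given for miR-196a* hold only if the probe targets that copy, which was not checked. Whether a position is exonic or intronic cannot be read from the gene spans, and their strand was not compared.

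Among the 16 with a sequence, no seed was shared, while miR-30c-2* had the seed of miR-30c-1*, which stayed under the floor. In the RefSeq table the miR-20b* seed also occurs in miR-17-3p and miR-106a-3p, the miR-34c* seed in miR-34b-3p and the miR-294* seed in miR-292b-5p. The ranges of base composition overlapped between names that did and did not reach the floor. The 16 were 21 to 22 bases long with a median GC content of 47.7% (40.9% to 63.6%), against 21 to 23 bases and 50% (31.8% to 63.6%) for the 51 others with a sequence. A uridine at the first base, which Argonaute proteins favour, was found in 2 of 16 and 7 of 51.

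Most passenger-strand probes stayed under the floor, although 57 of 81 on the ID8 array, 55 on the CT-26 array and 43 on the control array were brighter than every empty spot. The brightest empty spot read 1.75, 2.25 and 6 units on those arrays, so this cut was highest in the control. The same count over all mouse probes was not made. The floor was reached by 17 of 81 on the ID8 array (21%), 15 on the CT-26 array (18.5%) and 17 on the control array (21%), against 33.2%, 30.7% and 30.2% of all mouse probes. All 3 arrays were above it for 14 names, 2 arrays for 2, 1 array for 3 and none for 62. The starred names left out by number reached the floor more often, at 19, 19 and 20 of 34 probes, so the low share holds for this selection and not for starred names as a whole.

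The 62 names under the floor on every array had median corrected intensities of 4.75 units in the ID8 co-culture, 3.625 in the CT-26 co-culture and 3.625 in the control. Of them, 24, 26 and 38 were no brighter than the brightest empty spot, which read highest in the control. On the ID8 array the floor fell between miR-488* (58 units) and miR-29b* (38 units). On the CT-26 array it fell between let-7d* (50 units) and miR-16* (41.25 units), and on the control array between miR-488* (50.25 units) and miR-140* (40.25 units).

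**Figure D1:**
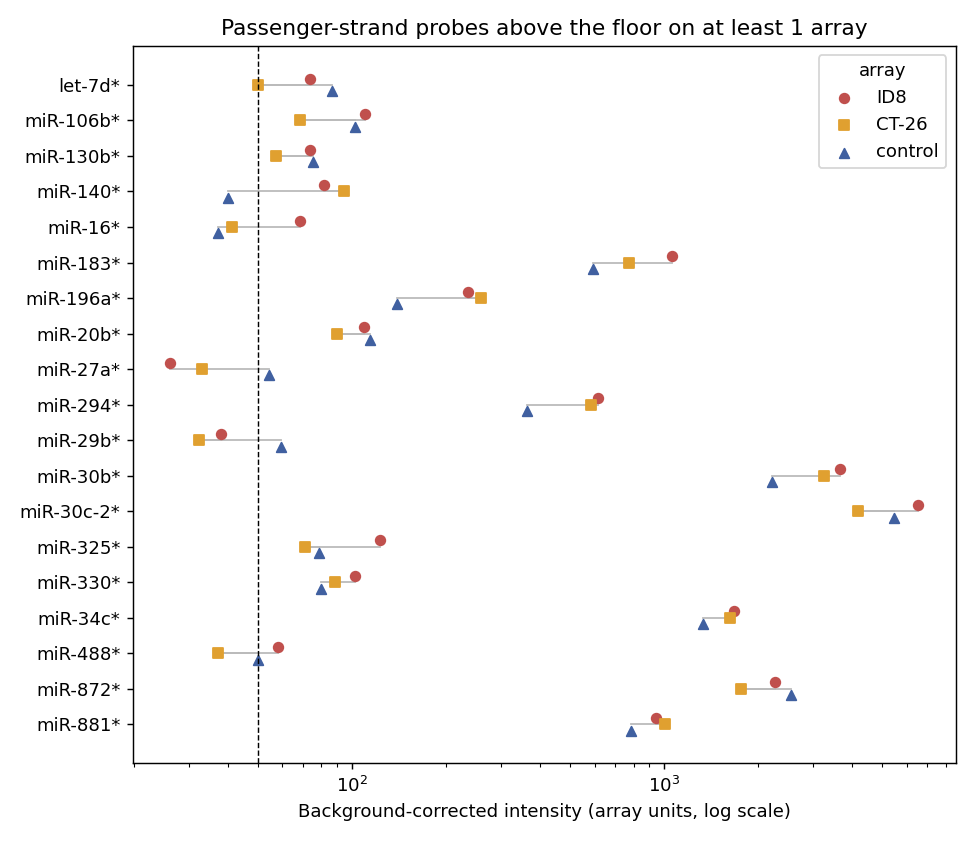
Corrected intensity (log scale) of the 19 passenger-strand probes that reached the floor of 50 units (dashed line) on any array; each row is 1 probe and each symbol 1 array, with a line spanning the 3 values, and rows are in order of name. Corrected units are not scaled between arrays, so a row shows the side of the floor and not the direction of a difference. For example, miR-30c-2* read 6533.5 units in the ID8 co-culture and 5452.25 in the control, but 16.4 and 16.8 after normalization. Different rows may not be compared either. The 3 arrays lie close together for most rows, and miR-140*, miR-16*, miR-488*, miR-29b* and miR-27a* straddle the floor.

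In the miR-30 family, whose guides are abundant in many tissues, 2 of 5 passengers were above the floor on all 3 arrays, against 14 of all 81. Normalized miR-30c-2* read 16.4 in the ID8 co-culture and 12.5 in the CT-26 co-culture, against 16.8 in the control. The other 3 family members, miR-30a*, miR-30c-1* and miR-30e*, read at most 13.5 corrected units anywhere. Normalized miR-30b* was 9.21 in the ID8 co-culture and 9.70 in the CT-26 co-culture, against 6.84 in the control. For miR-30b* both co-cultures lay above the control, and for miR-30c-2* the CT-26 array was the lowest and the other two were close.

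In other families few passengers reached the floor on any array, as 19 of all 81 did. The lists are too small to set their shares apart from that share. One of 7 let-7 passengers reached the floor (let-7d*), 1 of 3 in the miR-15/16 family (miR-16*, in the ID8 co-culture), 2 of 7 in the miR-17 cluster and its paralogs (miR-20b* and miR-106b*), 1 of 3 in the miR-29 family (miR-29b*, in the control) and 1 of 6 among embryonic stem cell precursors (miR-294*). In the list of blood cell and inflammatory precursors, with 10 passengers, miR-34c* and miR-27a* reached it. The list holds miR-34c, but that miRNA is known mainly as p53-responsive, and miR-27a* reached the floor in the control alone. In that list miR-146b*, miR-150*, miR-26b*, miR-181a-1* and miR-181a-2* did not reach it. The neural list had miR-183* above the floor and 5 others below, and 0 of 1 muscle, 0 of 4 epithelial, liver and gut and 0 of 4 mesenchymal passengers reached it. Under the floor does not mean without signal: miR-203*, of a skin precursor, read 6.25, 3.75 and 8.5 units in the ID8 co-culture, the CT-26 co-culture and the control, above every empty spot.

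Neighbouring precursors differed in whether their passenger probes reached the floor. Within the Mcm7 span, miR-106b* read 110.25 units in the ID8 co-culture, 68.5 in the CT-26 co-culture and 102.25 in the control, whereas miR-93* read 9.5, 5 and 20.25. In the embryonic stem cell cluster on chromosome 7, miR-294* read 615.25, 586.25 and 363.25 units on the same arrays, whereas its neighbours miR-293* and miR-295* read at most 24 and 1.75. The miR-16* probe, taken as the miR-16-1 arm, read 68.25, 41.25 and 37.25 units, and miR-15a*, within the span of the same noncoding gene Dleu2, at most 13.25. Probes differ in how well they bind, so these readings show which probes reached the floor and not which RNA was more abundant.

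Guide arms reached the floor more often than these passengers on every array. Guide probes above it numbered 33 of 83 in the ID8 co-culture (39.8%), 28 in the CT-26 co-culture (33.7%) and 22 in the control (26.5%). Of all mouse probes 33.2%, 30.7% and 30.2% were above it, so in the control the guides lay below that share. The floor of 50 corrected units is a different normalized level on each array. The lowest normalized mouse value above it was 0.126, 0.149 and 0.155. Its part in the differences between arrays was not tested. Counting each of the 81 passenger names with its guide, both arms were above the floor for 8, 6 and 6 names on those arrays, the passenger alone for 9, 9 and 11, the guide alone for 25, 22 and 17, and neither for 39, 44 and 47.

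**Figure D2:**
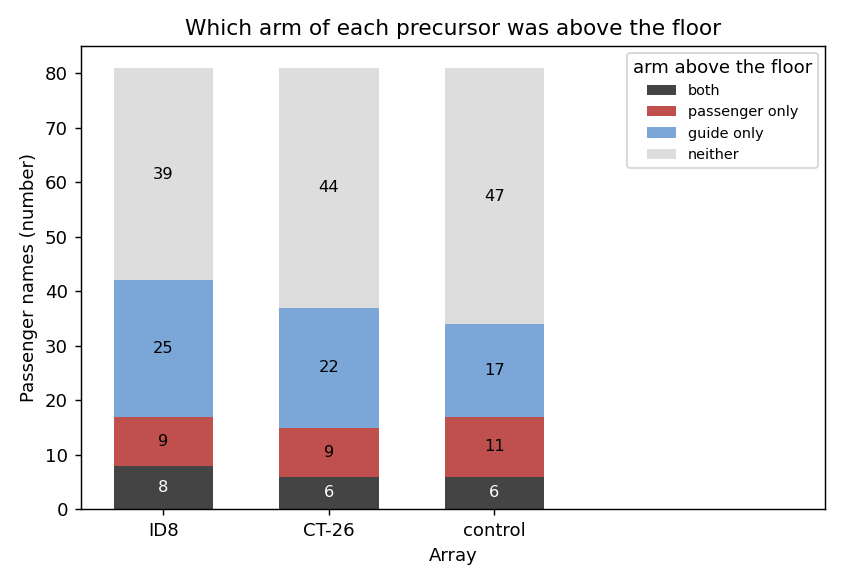
Number of the 81 passenger names (vertical axis) by which arm of the precursor was above 50 corrected units on each array (horizontal axis). The guide-only part holds 25 names in the ID8 co-culture and 22 in the CT-26 co-culture, against 17 in the control. The floor is in corrected units and was not scaled between arrays.

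In 7 precursors the passenger probe was above the floor on all 3 arrays and the guide probe on none, namely miR-130b, miR-196a, miR-20b, miR-294, miR-30b, miR-330 and miR-872. The miR-872* probe read 2273.5 units in the ID8 co-culture and 1765 in the CT-26 co-culture, against 2552.75 in the control, and the miR-872 probe 1.5, -0.25 and -4.75. The miR-196a* probe read 235.75 and 259.5 units, against 139.75, and the probe of miR-196a, whose genes lie in the Hox clusters, at most -1.25. For miR-294, an embryonic stem cell miRNA, the guide probe read at most 5.75 units. Of the other guides, miR-130b and miR-20b lay just under the floor in the ID8 co-culture, so their state there rests on where it was set. The miR-130b probe read 48.75 units in the ID8 co-culture, 38.75 in the CT-26 co-culture and 36.75 in the control. The brighter of the miR-20b probes read 47.25, 44.5 and 27 on those arrays. miR-30b read 11.75, 3.5 and 36.25, nearest the floor in the control, and miR-330 read 23.75, 14.75 and 19.75. Probes differ in how well they bind, so these readings do not show which arm was more abundant. Whether these passenger probes bound other RNA was not tested. The opposite pattern, guide above the floor on all arrays and passenger on none, was found for 13 names, among them miR-20a*, miR-15a*, miR-26b* and miR-214*.

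The first comparison asked which passenger strands differed between BMDCs beside ID8 ovarian tumour cells and control BMDCs. Among the 15 passengers measured on both arrays, none (0) reached 2-fold in either direction, where 7.88% of the 165 mouse names measured passed 2-fold (4.85% higher, 3.03% lower). The median log2 ratio was -0.03, against 0.02 over all mouse names, with values from -0.53 to 0.55. Of the 4 passengers above the floor on 1 of these arrays, none was shown to differ by 2-fold. The selection bears on these counts: among the starred names left out, miR-24-2* and miR-433* were past 2-fold on the low side (log2 ratios of -2.05 and -1.64), and miR-28*, under the floor in the ID8 co-culture, was at least 4.40-fold lower.

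No measured passenger reached 1.5-fold, where 9.09% of all mouse names were that much higher and 7.27% lower. miR-183*, of a sensory cell cluster, had a normalized intensity of 2.67 in the ID8 co-culture and 1.83 in the control, 1.46-fold higher. miR-294* had 1.54 and 1.12 (1.38-fold), and miR-196a* 0.592 and 0.430 (1.38-fold). On the low side, let-7d* had 0.185 in the ID8 co-culture and 0.266 in the control, 1.44-fold lower, and miR-872* had 5.71 and 7.85 (1.38-fold lower). miR-20b* and miR-130b* had log2 ratios of -0.36 and -0.33, and miR-325* and miR-30b* of 0.36 and 0.43. miR-34c*, whose precursor responds to p53, had 4.21 and 4.11. These directions are relative to the authors' scaling: with arrays scaled to the U6-snRNA-2 probe, all 15 ratios were below 0, with a median of -1.30 against -1.25 over all mouse names.

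The same question was asked of CT-26 colon tumour cells. Of 14 passengers measured on both arrays, 0 were 2-fold higher and 0 2-fold lower, where 20.3% of 158 mouse names passed 2-fold (13.3% higher, 6.96% lower). The median log2 ratio was -0.05, against 0.01 over all mouse names, and the range, -0.84 to 0.85, was wider than for ID8. The spread over all mouse names was wider too. Their log2 ratios had a standard deviation of 0.851 for CT-26 over control and 0.571 for ID8 over control. The sign of the median depends on the floor: at 100 units it was 0.33, with 6 of 8 passengers above 0. Among the 19 starred names left out and measured here, miR-21* was 2.99-fold higher, and miR-24-2*, miR-433* and miR-200c* were 5.91-fold, 3.38-fold and 2.72-fold lower; miR-28* was at least 3.70-fold lower. At 1.5-fold, 2 passengers were higher and 2 lower, where 22.8% and 18.4% of all mouse names were (41.1% in either direction).

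Those higher were miR-196a*, with a normalized intensity of 0.774 in the CT-26 co-culture and 0.430 in the control (1.80-fold), and miR-294*, with 1.75 and 1.12 (1.56-fold). The lower ones were let-7d*, with 0.149 and 0.266 (1.78-fold lower), and miR-106b*, with 0.204 and 0.315 (1.54-fold lower). let-7d* sat on the floor, at 50 corrected units, on the CT-26 array. miR-872* had 5.26 in the CT-26 co-culture and 7.85 in the control, 1.49-fold lower, and miR-30b* was 1.42-fold higher. miR-183* and miR-881* had log2 ratios of 0.33 and 0.32, and miR-130b*, miR-30c-2* and miR-20b* of -0.43, -0.43 and -0.39. Scaled to U6-snRNA-2, all 14 ratios were below 0, with a median of -1.12 against -1.06 over all mouse names.

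miR-140*, from within the span of Wwp2 and known in cartilage, was above the floor in both co-cultures and not in the control. It read 81.5 corrected units in the ID8 co-culture and 94.75 in the CT-26 co-culture, against 40.25 in the control, and so was at least 1.32-fold and at least 1.83-fold higher. Its guide probe read 18, 23 and 9 units, under the floor throughout. Conversely miR-27a* read 26.25 and 33.25 units in the co-cultures against 54.25 in the control, and miR-29b* 38 and 32.5 against 59.25. The bounds were at least 1.33-fold and 1.12-fold lower for miR-27a* and at least 1.45-fold and 1.22-fold lower for miR-29b*. The control background was also the highest of the 3 arrays, which was not tested as a source of these small readings.

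**Figure D3:**
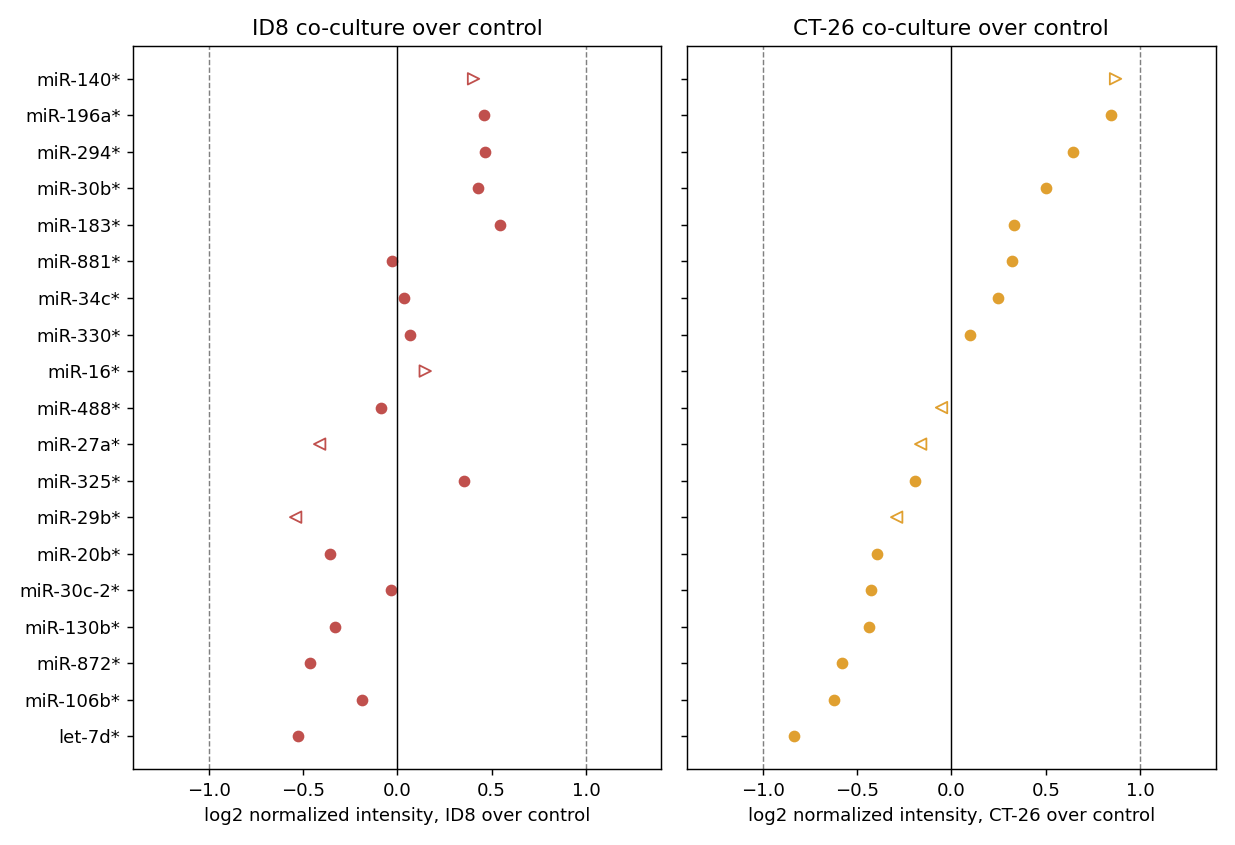
Log2 ratio of normalized intensity for the passengers that reached the floor, 19 for ID8 over control (left) and 18 for CT-26 over control (right, where miR-16* was under the floor on both arrays and has no point); filled points were measured on both arrays, and open triangles are bounds, pointing the way the true ratio may extend. Dashed lines mark 2-fold, and every point lies between them under the authors' scaling, while under U6-snRNA-2 scaling all measured ratios were below 0. Both panels share the control array.

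The co-cultures were also set against each other, to ask whether the tumour line mattered. Of 15 passengers measured on both arrays, 0 were 2-fold higher and 0 2-fold lower beside ID8 cells, where 2.29% of 175 mouse names were higher and 6.29% lower (8.57% in either direction). None reached 1.5-fold either, where 6.29% of mouse names were that much higher and 10.3% lower. Among the starred names left out, miR-21* was 2.47-fold lower beside ID8 cells. The ratios ran from -0.47 to 0.55 on the log2 scale, with a median of 0.04 against -0.01 over all mouse names. miR-325* was 1.46-fold higher beside ID8 cells, with 0.310 in the ID8 co-culture and 0.212 in the CT-26 co-culture. miR-106b* was 1.35-fold higher and miR-30c-2* 1.32-fold higher, while miR-140* was 1.38-fold and miR-196a* 1.31-fold lower beside ID8 cells.

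Both arms of 6 precursors were measured on all 3 arrays, which allows passenger and guide to be compared by how each differed between arrays. The miR-30c guide sequence occurs at 2 loci and miR-30c-2* at 1, so that pair is not strictly of 1 precursor. The difference of the log2 ratios of the arms does not depend on how an array is scaled, since any constant of an array cancels. let-7d and miR-106b had the widest differences in both co-cultures at the floor of 50; at 100 units, of their differences over control, that of miR-106b in the ID8 co-culture alone was still measured. In these precursors the arms lay on either side of 0, with the guide arm above the control and the passenger arm below it under the authors' scaling; scaled to U6-snRNA-2, the guide arms also lay below 0 and the differences were the same. The let-7d precursor gives a let-7 family guide, and miR-106b, a miR-17 family guide, shares its seed with miR-20b as these guide sequences show.
let-7d: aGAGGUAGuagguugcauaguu
miR-106b: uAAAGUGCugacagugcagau
miR-20b: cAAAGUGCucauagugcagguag
For let-7d the log2 ratio over control was -0.53 for the passenger and 1.14 for the guide in the ID8 co-culture, a difference of -1.67, or 3.17-fold. In the CT-26 co-culture it was -0.84 for the passenger and 0.81 for the guide, a difference of -1.65. With normexp background correction, which adds an offset and so compresses dim probes, the differences were -1.07 and -0.95. Both arms were near the floor: let-7d* read 73.5 and 50 corrected units in the co-cultures against 86.5 in the control, and let-7d 172.5 and 116 against 64. A further let-7d probe read at most 8.75 units, and let-7 probes may share signal with other family members.

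For miR-106b the passenger had log2 ratios of -0.18 (ID8 over control) and -0.62 (CT-26 over control), and the guide 0.58 and 0.91. The differences between arms were -0.76 for ID8 and -1.54 (2.90-fold) for CT-26. With normexp they were -0.56 and -1.05, and with quantile normalization -0.84 and -1.37. The guide probe read 189.5 units in the ID8 co-culture and 201 in the CT-26 co-culture, against 103.5 in the control.

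For miR-27a the arms could be compared through bounds alone. The guide was under the floor in the control (33.75 units) and above it in the co-cultures (100.75 and 118.5). The passenger was the reverse, at 54.25 units in the control, just above the floor, and 26.25 and 33.25 in the co-cultures. Which arm passed the floor on which array sets the sign of these bounds. The log2 ratio of the passenger was thus below that of the guide by at least 1.12 (2.18-fold) for ID8 over control and by at least 1.36 (2.56-fold) for CT-26 over control.

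Of the other 4 precursors, miR-325 had the widest difference between arms for ID8 over control, close in size to that of miR-106b and opposite in sign. The passenger minus guide difference over control was -0.08 for miR-30c-2*, -0.02 for miR-34c* and -0.05 for miR-881*, and 0.65 for miR-325*. In the CT-26 co-culture it was -0.76 for miR-30c-2*, 0.62 for miR-34c*, 0.62 for miR-881* and 0.18 for miR-325*. Over all 6, the passenger lay below its guide in 5 for ID8 over control (median difference -0.06) and in 3 for CT-26 over control (median -0.29). No replicate gives the spread of such a difference, and the small ID8 values of miR-30c-2* and miR-34c* turned positive with normexp. miR-881 comes from an X-linked cluster known in testis.

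**Figure D4:**
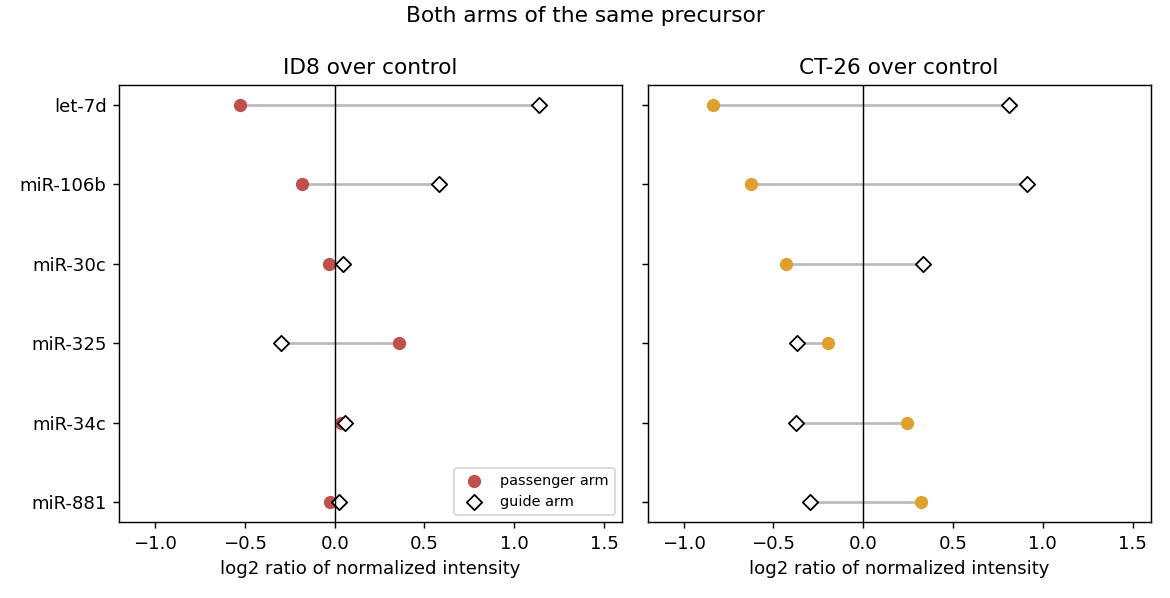
Log2 ratio of normalized intensity over control for the passenger arm (filled circle) and the guide arm (open diamond) of the 6 precursors with both arms above the floor on all arrays, in the ID8 (left) and CT-26 (right) co-cultures; the grey line is the difference, which scaling by a constant does not change. The lines are longest for let-7d (-1.67 and -1.65), followed by miR-106b (-0.76 and -1.54). The miR-30c guide has 2 loci, so its signal may come from another precursor than that of miR-30c-2*. The position of 0 depends on the scaling, and both panels share the control array.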

How the data were processed

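Total RNA labelled with Hy3 was hybridised to a miRNA array and read with a GenePix 4000B scanner, per the labels and the series' design text. The deposited table gives raw, corrected and normalized intensity, per the file headers; averaging and normalization steps are not given in the sources used here. Deposited corrected intensity divided by normalized intensity was a constant of each array, 398.25 for ID8, 335.25 for CT-26 and 325 for control. The series matrix holds the same normalized values, so their scale is linear and their centring that constant.

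Ratios are log2 of the deposited normalized intensity where both arrays had 50 or more corrected units. Probes of 1 name that passed were averaged on log2. Where 1 array was under the floor, the ratio is a bound ("at least") against the lowest mouse value above the floor there, in normalized units. Higher and lower mean 2-fold. With 1 array per group, nothing gives the spread between samples, and the number of arrays limits the precision.

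Members and lists were chosen with earlier results of these data known. Named miRNAs are members past 2-fold or with the 5 widest ratios each way in a comparison, the 5 highest levels of each array, those next to the floor, the brightest of each list, and their guide arms; others are named to complete a family, a count or a shared seed, after their values were seen. Alternatives were floors of 100, none and the brightest empty spot, no normalization, quantile normalization, U6 scaling, normexp background correction with an offset of 50 (limma 3.58.1, R 4.3.3) and a threshold of 1.5-fold. On simulated arrays only bright probes were changed, each by more than the 2-fold threshold. The ratio code recovered every such change as long as arrays were not rescaled. Dim probes and differences under 2-fold, as among the passengers here, were not covered by that check. Rescaling by each array's median, used after normexp, shifted all ratios together and missed some of the changes when many bright probes were altered, so single ratios under normexp carry that limit. Passenger minus guide differences, in which such a shift cancels, were also computed under quantile normalization and normexp, chosen after seeing the data. Arms were assigned by hand from the star naming. The names miR-196a*, miR-16* and miR-29b* give no copy number, though their guides have 2 loci. For these the arms of miR-196a-1, miR-16-1 and miR-29b-1 were taken.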

Additional observations from a re-analysis of the deposited data

Results flagged for a closer look

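A pair of passengers had log2 ratios of opposite sign in the co-cultures, each on 1 array, and the difference was not tested. miR-325* had 0.36 for ID8 over control and -0.19 for CT-26 over control, and miR-881* had -0.03 and 0.32. For miR-881* the ID8 ratio was 0.01 after normexp background correction and 0.27 without normalization, so the opposite signs were lost there. Scaled to U6-snRNA-2 they were lost for both passengers, with miR-325* at -0.91 and -1.27 and miR-881* at -1.30 and -0.75.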

How the results depend on the processing

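No passenger passed 2-fold in any comparison at a floor of 100, without normalization, with quantile normalization or with normexp correction. With no floor, where readings near 0 enter, 9 of 62 passengers were higher and 8 lower for ID8 over control. Of 445 mouse names, 45 were higher and 50 lower there. For CT-26 over control 9 and 12 of 62 passengers were, against 62 and 71 of 442 mouse names. For ID8 over CT-26 it was 6 and 3 of 64 passengers, against 34 and 32 of 474 mouse names. Scaled to U6-snRNA-2, 10 of 15 passengers were lower for ID8 over control (median -1.30), against 117 of 165 mouse names. For CT-26 over control 7 of 14 were (median -1.12), against 83 of 158 mouse names, as the scaling shifts every ratio alike. At 1.5-fold, 2 of 14 passengers were higher and 2 lower for CT-26 over control, against 36 and 29 of 158 mouse names. At a floor of 100, members above it numbered 8 on the CT-26 array and 10 on the control array; the median log2 ratio was then 0.0038 for ID8 over control, 0.33 for CT-26 over control and -0.13 for ID8 over CT-26, each opposite in sign to that at 50, and neither let-7d difference over control nor that of miR-106b for CT-26 over control was measured. Members numbering 57, 55 and 43 exceeded the brightest empty spot on the ID8, CT-26 and control arrays, a cut that was highest on the control array. The let-7d passenger minus guide difference for ID8 over CT-26 was 0.75 with no floor, which brings in the dim let-7d probe; over control it was -1.08 (ID8) and -1.83 (CT-26) there. With normexp it was -1.07 for ID8 over control and -0.95 for CT-26 over control. Under settings other than U6 scaling, ratios that changed sign were those of miR-488*, miR-30c-2*, miR-106b*, miR-881*, miR-330* and miR-34c* over control, and of miR-30b*, miR-330*, miR-34c*, miR-294*, miR-20b* and miR-130b* between co-cultures. Rescaling after normexp can shift all its ratios together. Signal near background and single arrays limit all values. No paired analysis was possible because each group has 1 sample.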
